A study of Homo sapiens with 2 samples.

Results

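The EGF-family ligands and ERBB receptors examined here are 10 genes of the 58735 listed in the count table, taken by symbol. They are 5 ligand genes (AREG, EREG, HBEGF, TGFA and BTC), 4 receptor genes (EGFR, ERBB2, ERBB3 and ERBB4) and ERRFI1, the gene of an inhibitor of these receptors. RNA was sequenced from MAEL WT and MAEL KO cells, as 1 library each, of the HCC line PLC8024, which the labels also call Alexander cells, epithelial cells from liver. The MAEL WT cells carried a wildtype genotype and were not treated, and the MAEL KO cells had been given a Cas9 plasmid with an sgRNA to MAEL, sorted by a fluorescent marker and grown from single cells, so a knockout line made this way is a clone. Both were cultured tumor cells of the same line, and the comparison describes which transcripts differ between the MAEL KO and MAEL WT libraries, MAEL being a cancer/testis gene. With 1 library each, knockout of MAEL cannot be told apart from sorting and growth from single cells.

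All ligands of this family are made as membrane-anchored precursors with an EGF-like module, which cell-surface proteases cut free. AREG, TGFA and EGF bind EGFR, whereas EREG, HBEGF and BTC bind both EGFR and ERBB4. The neuregulins bind ERBB4, and some of them bind ERBB3 as well. Bound receptors pair and phosphorylate one another, ERBB2 pairing without a ligand of its own and ERBB3 signaling mainly through its partners, and the signal runs to the RAS-ERK and PI3K-AKT pathways. In liver the family is known for its part in regeneration after injury, and in HCC cells several ligands can act on the cells that release them.

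The libraries summed to 19904136 counts (MAEL WT) and 20833332 counts (MAEL KO), so 3 counts, the floor used here, stood for 0.151 and 0.144 CPM. MAEL itself had counts of 1 and 0 in the libraries labelled MAEL WT and MAEL KO, both under the floor. Its transcript thus neither checked the labels nor showed a difference in MAEL between the libraries. The library labels are therefore used as given. The count columns and the sample titles name the cell line differently and were matched by their endings, WT and KO. Of 9 hepatocyte markers none was at or under the floor in either library, and their summed counts were 213613 and 491843. All 9 were higher in MAEL KO, where 8593 of 17887 tested genes were above 0. Their median log2 fold change was 1.42, from 0.41 for KRT18 to 7.36 for ALB, which had 59 and 8550 counts. Past 2 were 33.3% of them, all higher, against 2.16% of tested genes. Among 10 markers of blood, vessel and stroma cells the summed counts were 626 and 588, and PTPRC, HBB, ACTA2 and VWF were at or under the floor in both libraries. Of the 5 tested, COL1A1 (92 and 11 counts) and PDGFRB (122 and 29) were lower at -2.75 and -1.83, COL3A1 (54 and 136) and CDH5 (4 and 15) were higher at 1.52 and 1.86, and PECAM1 was at 0.38. CDH5 was tested through its MAEL KO counts alone, so a higher value was favoured. The part of these marker differences in the results below was not tested. With 1 library per condition no difference has a replicate check, and no p-value is given. The genes were chosen by symbol with the log2 fold changes of MAEL KO against MAEL WT known, so the values of this contrast are a description. Fewer cells that make a transcript and less transcript per cell cannot be told apart in these RNA samples.

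The tested ligands were lower in MAEL KO, EGFR and ERBB3 were higher, and ERBB2 was slightly lower. Fold changes are log2 values of MAEL KO against MAEL WT after scaling by TMM factors, where 1 was added to each normalized count. A gene was tested if either library held 10 or more of its counts. Of the 10 members 9 were tested, TGFA being the exception, and BTC and ERBB4 passed the filter through the MAEL WT library alone. Of the 5 ligands, 4 passed the filter and all 4 had a log2 fold change below -2, where 5.64% of the 17887 tested genes did. This fold is only a part of the study's own threshold, which also set a limit on an adjusted p-value. None of the 4 receptors was past 2 in either direction, against 7.8% of tested genes (2.16% higher and 5.64% lower). Past 1 were 4 ligands and 1 receptor, all lower, where 16.5% of tested genes were lower and 10.2% higher. With at least 100 counts required, 1110 genes were higher and 1101 lower past 1. The excess of lower genes thus lay among those with fewer counts. The background shares are printed for scale only, because the same contrast served to pick the genes.

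**Figure D1:**
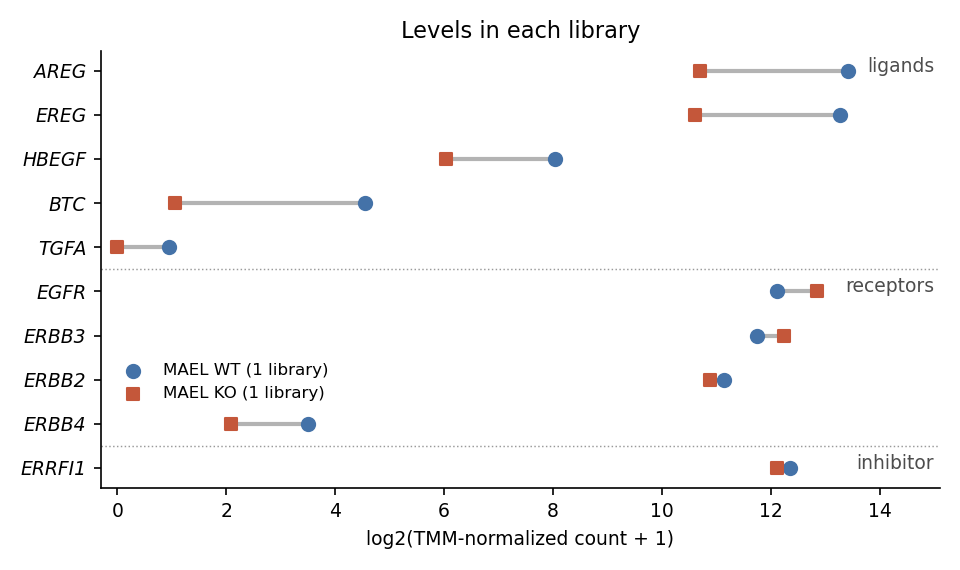
Levels of the 10 genes as log2 of the TMM-normalized count plus 1, with a circle for the MAEL WT library and a square for the MAEL KO library. The squares of the ligands lie to the left of their circles, AREG at 1653 against 10945 normalized counts, with both points of TGFA under the floor of 3 counts, whereas those of EGFR and ERBB3 lie to the right.

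AREG encodes amphiregulin, a ligand of EGFR made by many epithelial tumors. The gene is on the plus strand of chromosome 4 (GRCh38), from 74445134 to 74455009, with 3 transcripts of up to 6 exons in GENCODE 29. AREG had 11742 counts in MAEL WT and 1533 in MAEL KO, which are 10945 and 1653 normalized counts. The level was 6.62-fold lower in MAEL KO, with a log2 fold change of -2.73 (95% limits -2.80 and -2.65). Intervals on fold changes, given below by their 95% limits, come from the exact Clopper-Pearson limits on how a gene's counts divide between the libraries, and they hold counting error alone, as the reads carry no molecular identifiers and may be copies. By deposited FPKM, a level per length, AREG ranked 54 among protein-coding genes in MAEL WT at 326 FPKM, and 899 in MAEL KO at 49.1 FPKM. Of all tested genes, 2.72% had a lower log2 fold change. The submitters' processing notes name hg19, in which a near-identical copy of the gene, AREGB, stands beside AREG, while the tables carry GRCh38 coordinates and hold 0 genes named AREGB.

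EREG encodes epiregulin, which binds EGFR and ERBB4, and is the next gene to AREG on the chromosome. It spans 74365143 to 74388751 on the plus strand, with 3 transcripts of up to 5 exons. EREG had 10556 counts in MAEL WT and 1438 in MAEL KO, or 9840 and 1551 normalized counts. Its log2 fold change was -2.66 (95% limits -2.75 and -2.59), a 6.34-fold lower level in MAEL KO. Per length, EREG stood at 84.4 FPKM in MAEL WT and 13.3 in MAEL KO. AREG and EREG thus differed between the libraries by nearly the same factor. The ratio of AREG to EREG in FPKM was 3.86 in MAEL WT and 3.70 in MAEL KO, a change of -0.06 on the log2 scale (95% limits -0.17 and 0.05), which includes no change at this depth and does not depend on the scaling between libraries.

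The bases before the annotated starts of AREG, EREG and HBEGF, the ligands with the most counts, and of EGFR, which was higher in MAEL KO, are shown because these members differ in direction. The 250 bases before each RefSeq start (GRCh38.p14) were searched on both strands for AP-1 (TGACTCA), a full CRE (TGACGTCA), C/EBP (TTGCNNAA), a C/EBP-ATF composite (TGATGNAA), TEAD (GGAATG), SP1 (GGGCGG) and a TATA box (TATAAA), with the matches in capitals, each sequence 5′ to 3′ on the strand of its gene. The AREG window is chr4:74444886-74445135 and the EREG window chr4:74364895-74365144, both on the plus strand. The HBEGF window is chr5:140346604-140346853 on the minus strand, and that of EGFR is chr7:55018767-55019016 on the plus strand.
AREG: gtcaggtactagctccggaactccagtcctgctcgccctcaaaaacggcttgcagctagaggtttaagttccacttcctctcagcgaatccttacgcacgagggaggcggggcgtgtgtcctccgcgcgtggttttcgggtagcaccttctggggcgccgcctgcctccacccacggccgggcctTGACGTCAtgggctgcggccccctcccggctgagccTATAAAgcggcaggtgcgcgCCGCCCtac
EREG: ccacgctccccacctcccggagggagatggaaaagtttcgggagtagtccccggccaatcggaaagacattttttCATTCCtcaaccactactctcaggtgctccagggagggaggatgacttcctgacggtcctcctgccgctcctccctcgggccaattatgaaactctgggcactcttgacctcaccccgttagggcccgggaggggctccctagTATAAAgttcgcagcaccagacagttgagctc
HBEGF: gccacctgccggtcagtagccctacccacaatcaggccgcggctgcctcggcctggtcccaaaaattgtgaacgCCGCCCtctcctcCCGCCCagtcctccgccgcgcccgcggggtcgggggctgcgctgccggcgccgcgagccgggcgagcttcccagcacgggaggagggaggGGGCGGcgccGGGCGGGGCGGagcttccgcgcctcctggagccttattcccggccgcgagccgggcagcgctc
EGFR: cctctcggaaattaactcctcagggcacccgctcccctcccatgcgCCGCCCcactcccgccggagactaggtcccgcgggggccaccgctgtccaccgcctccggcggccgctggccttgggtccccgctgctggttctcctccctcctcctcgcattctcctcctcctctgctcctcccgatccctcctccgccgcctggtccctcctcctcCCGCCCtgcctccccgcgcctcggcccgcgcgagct

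The AREG window held a full CRE that began 65 bases before the start, and it was the 1 window with a CRE among the 11 windows matched for 9 of the members. Of 35116 windows of the same length, 1.65% held this palindrome, which CREB and ATF factors bind. A TATA box began 29 bases before the start of AREG and 32 before that of EREG, and the window of a second EGFR start held it too, against 10.7% of all windows with the letters at any place. TEAD letters began 175 bases before the start of EREG and 114 before the second start of EGFR (11.9% of windows). AREG, HBEGF and EGFR held SP1 letters, which 42.6% of windows did, and some of the 5 matches in HBEGF overlapped. AP-1 letters (4.20% of windows) and C/EBP letters (9.05%) were found in the window of a second EGFR start alone, and the composite (3.14%) in none. These matches are letters in a window and say nothing of which factors bound there.

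HBEGF encodes heparin-binding EGF-like growth factor, which is also the receptor for diphtheria toxin. It lies on chromosome 5 from 140332843 to 140346631 on the minus strand, with up to 6 exons. HBEGF had 282 counts in MAEL WT and 60 in MAEL KO, or 263 and 64.7 normalized counts. The log2 fold change was -2.01 (95% limits -2.45 and -1.62), a 4.02-fold lower level. HBEGF therefore sat at the threshold itself, and with 5 in place of 1 added to the counts its value was -1.94. It was a minor ligand by level, at 4.27 FPKM in MAEL WT and 1.05 in MAEL KO.

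BTC encodes betacellulin, which binds EGFR and ERBB4. The gene lies on chromosome 4 from 74744759 to 74794686 on the minus strand. BTC had 24 counts in MAEL WT and 1 in MAEL KO, and its log2 fold change of -3.49 had 95% limits as wide as -9.74 and -1.76. The interval lies below 0, but BTC passed the filter through the MAEL WT library alone, so a lower value was favoured. Its direction and its place among the ligands below -2 are therefore description only. The size was uncertain too, and the value moved from -4.25 to -2.17 as the added count went from 0.1 to 5. TGFA, the gene of TGF-alpha on chromosome 2, had 1 count in MAEL WT and 0 in MAEL KO. Both are at or under the floor, so no fold change was computed. TGFA takes no part in the count of ligands past the threshold.

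**Figure D2:**
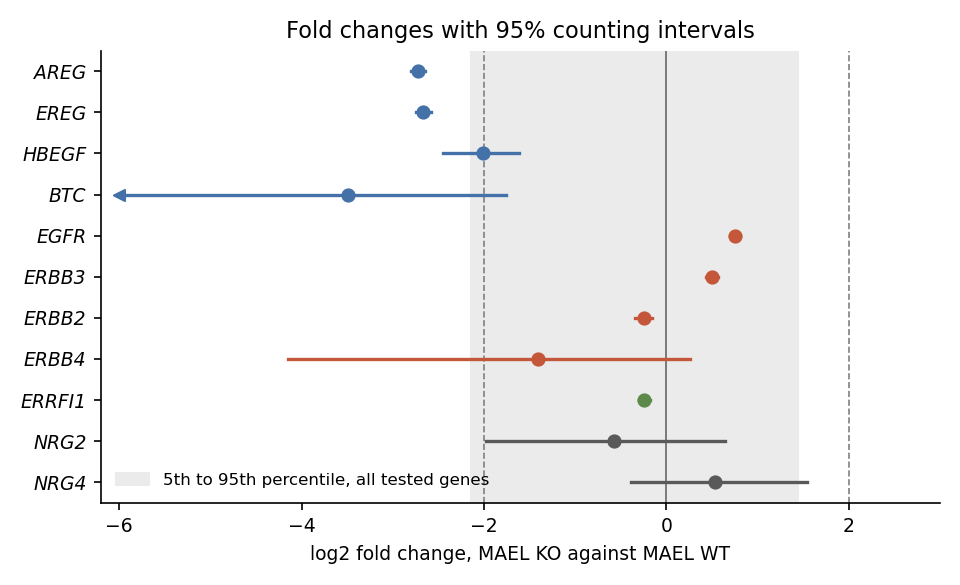
Log2 fold changes of the 9 tested members and of NRG2 and NRG4, points with 95% counting intervals, blue for ligands, red for receptors, green for the inhibitor and gray for the neuregulins; the band spans the 5th to 95th percentile of all tested genes (-2.14 to 1.44) and dashed lines mark -2 and 2. An arrow marks the interval of BTC, which goes on to -9.74, and AREG and EREG lie at -2.73 and -2.66.

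The remaining ligands of the family had few or no counts in both libraries. EGF had 0 counts in MAEL WT and 1 in MAEL KO, EPGN 3 and 0, and NRG1 and NRG3 were listed at 0 counts in both. A count of 0 allows up to the floor of 3 counts. Only NRG2 and NRG4 among these 6 genes were tested. NRG2, a ligand of ERBB3 and ERBB4, had 16 and 9 counts, and its log2 fold change was -0.57 (95% limits -1.98 and 0.65). NRG4, a ligand of ERBB4, had 18 and 23 counts, and its log2 fold change was 0.54 (95% limits -0.39 and 1.54). Both intervals include no change, and NRG2 passed the filter through the MAEL WT library alone.

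EGFR, the receptor of AREG, was higher in MAEL KO. The gene lies on chromosome 7 from 55019021 to 55211628 on the plus strand, with 11 transcripts of up to 28 exons. EGFR had 4717 counts in MAEL WT and 6869 in MAEL KO, or 4397 and 7408 normalized counts, and its log2 fold change was 0.75 (95% limits 0.70 and 0.81), a 1.68-fold higher level. Of all tested genes, 84.4% had a lower value. Its exons share 186 bases, 1.49% of its exon length, with the antisense gene EGFR-AS1, which had 10 and 31 counts.

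ERBB3, a receptor of some neuregulins with a weak kinase, lies on chromosome 12 from 56076799 to 56103505 on the plus strand. ERBB3 had 3665 counts in MAEL WT and 4494 in MAEL KO, or 3416 and 4847 normalized counts. The log2 fold change was 0.50 (95% limits 0.44 and 0.57), so ERBB3 was 1.42-fold higher in MAEL KO. ERBB2, the partner receptor without a known ligand, lies on chromosome 17 from 39687914 to 39730426 on the plus strand. ERBB2 had 2414 and 1755 counts, or 2250 and 1893 normalized counts. The log2 fold change of ERBB2 was -0.25 (95% limits -0.34 and -0.16). ERBB2 shares 5.53% of its exon bases with MIEN1 and 1.88% with PGAP3 on the opposite strand, and whether the reads were counted by strand is not given in the sources used here. MIEN1 had 623 and 552 counts and PGAP3 had 350 and 486.

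ERBB4, the remaining receptor, lies on chromosome 2 from 211375717 to 212538841 on the minus strand and had 11 counts in MAEL WT and 3 in MAEL KO. Its log2 fold change was -1.41 with a 95% interval of -4.15 to 0.26, which includes no change. With library totals it was -1.64, with 95% limits of -4.42 and -0.02. ERBB4 passed the filter through the MAEL WT library alone, so a lower value was favoured. The receptors therefore split, with EGFR and ERBB3 above 0, ERBB2 slightly below it and ERBB4 too low to tell. 

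ERRFI1 encodes MIG6, which binds the kinase domain of the receptors and is itself induced by EGFR signaling, as a brake on it. It lies on chromosome 1 from 8004404 to 8026308 on the minus strand. ERRFI1 had 5621 counts in MAEL WT and 4109 in MAEL KO, or 5240 and 4431 normalized counts, and its log2 fold change was -0.24 (95% limits -0.30 and -0.18). ERRFI1 thus differed far less between the libraries than AREG and EREG. It shares 3.70% of its exon bases with AL034417.4 on the opposite strand, which had 39 and 15 counts.

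When counts were scaled by library totals in place of TMM factors, the median of all tested genes moved by -0.27 on the log2 scale, and the members moved with it. None of the 9 tested members changed direction under this setting. A shift of this size could not have brought EGFR or ERBB3, at 0.75 and 0.50 with TMM factors, below 0. With library totals EGFR was at 0.48, ERBB3 at 0.23, ERBB2 at -0.53 and ERRFI1 at -0.52, while AREG was at -3.00 and EREG at -2.94. The 4 other settings tried changed no direction either, and they could hardly have done so. DESeq2 size factors and the FPKM ratio moved the median of all tested genes by -0.004 only, and an added count cannot change a direction. Of the genes past 2 in either direction, 27.7% were higher in MAEL KO with TMM factors and 17.0% with library totals.

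Ratios within a library do not depend on that scaling. Summed over the 5 ligands, the level per length was 415 FPKM in MAEL WT and 63.4 in MAEL KO, and summed over the 4 receptors 46.5 and 64.1. By these sums the ratio of ligands to receptors was 8.92 to 1 in MAEL WT and 0.988 to 1 in MAEL KO. This is a change of -3.17 on the log2 scale, with a 95% interval of -3.25 to -3.10 for counting error alone. Without AREG the change was -3.10. The ratios themselves depend on the listed gene lengths. Without division by length, the summed counts were 22605 for ligands and 10807 for receptors in MAEL WT, and 3032 and 13121 in MAEL KO. Against EGFR alone, AREG went from 18.9 times its level in MAEL WT to 1.70 times in MAEL KO, EREG from 4.90 to 0.459 times, and HBEGF from 0.248 to 0.0362 times.

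**Figure D3:**
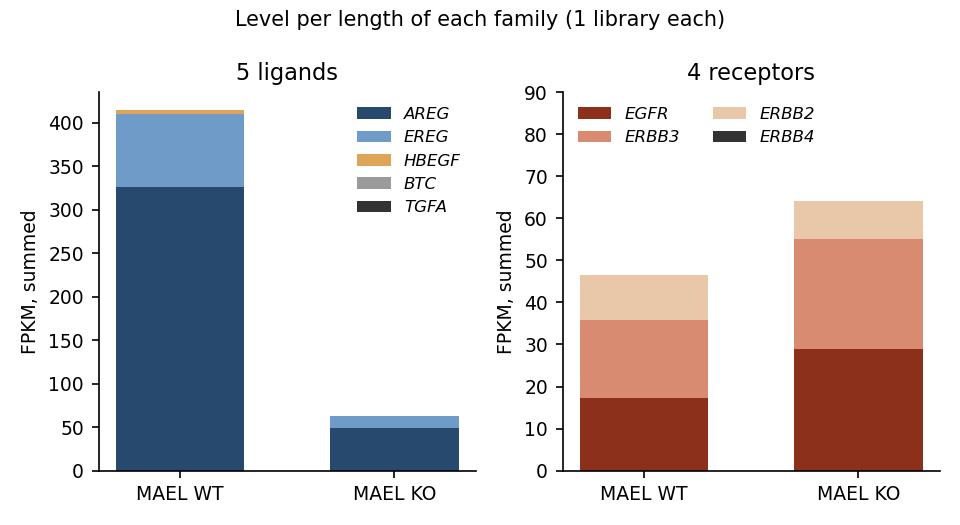
Summed deposited FPKM of the 5 ligands (left) and the 4 receptors (right) in the MAEL WT and the MAEL KO library, each bar divided by gene; the vertical axes differ. The ligand bar is 415 FPKM high in MAEL WT and 63.4 in MAEL KO with AREG as the largest piece of both, and the receptor bar goes from 46.5 to 64.1.

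The make-up of the ligand pool differed little although its size did. AREG took 78.5% of the ligand FPKM in MAEL WT (95% limits 78.1% and 79.0%) and 77.4% in MAEL KO (76.1% to 78.6%). EREG took 20.3% and 20.9%, and HBEGF 1.03% and 1.65%. BTC and TGFA together filled the small rest. Among the receptors ERBB3 took 39.9% in MAEL WT and 40.9% in MAEL KO, EGFR 37.0% and 45.1%, and ERBB2 23.0% and 14.0%. The ratio of ERBB2 to EGFR was 0.621 in MAEL WT and 0.310 in MAEL KO, with 95% limits of -1.11 and -0.90 on the log2 scale of the change. The ratio of ERBB3 to EGFR went from 1.08 to 0.906, a change of -0.25 (95% limits -0.33 and -0.17).

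The order of the genes by level per length in MAEL WT was AREG, EREG, ERRFI1 at 61.4 FPKM, ERBB3 at 18.5, EGFR at 17.2, ERBB2 at 10.7, HBEGF, BTC at 0.390, ERBB4 at 0.0386 and TGFA at 0.00921. In MAEL KO ERRFI1 came first at 51.8 FPKM, ahead of AREG at 49.1. EGFR at 28.9 and ERBB3 at 26.2 came next, then EREG at 13.3 and ERBB2 at 8.97. The places of the 3 main receptors depend on the length used. With the longest coding transcript of GENCODE 29 in place of the listed gene length, a choice made after seeing the data, ERBB2 took 31.4% of the receptor level in MAEL WT and EGFR 29.9%. Without replicates, no spread can be set against neighbouring places in these orders.

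Other genes of the pathway were described from lists by role, beside a median of -0.04 over all tested genes. Among genes for ligand release and trafficking, 10 of 12 were tested, with a median of 0.14 with TMM factors and -0.14 with library totals, and none past 2, where 7.8% of all tested genes lay. ADAM19, a metalloprotease, was highest at 1.11, followed by CD9, a tetraspanin that associates with the HBEGF precursor, at 0.62 and FRMD8, which stabilises the ADAM17 complex, at 0.58. ADAM15 at -0.59, ADAM9 at -0.41 and RHBDF2, an iRhom that carries ADAM17 to the surface, at -0.41 were lowest. ADAM17, the main sheddase of AREG, EREG and HBEGF, named here after its value was seen, had 1424 and 1179 counts and a log2 fold change of -0.06 (95% limits -0.17 and 0.05). The interval of the sheddase included no change with TMM factors but not with library totals, where its value was -0.34 (95% limits -0.45 and -0.23), while its substrates AREG and EREG were 6.62-fold and 6.34-fold lower.

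Among the receptor adaptors 14 of 15 were tested, with a median of -0.35 and 8 below 0. SHC4, with 13 and 1 counts, was the only one past 2, at -2.66 with a 95% interval of -8.90 to -0.76, and this 1 of 14 is 7.14%, against 7.8% of all tested genes. SHC4 passed the filter through the MAEL WT library alone, so a lower value was favoured. With library totals 3 adaptors were above 0 and 11 below it. GAB2 at -0.86 and SHC1, which links receptors to RAS, at -0.69 came next. The highest were GAB1 at 0.58, PLCG1, a phospholipase that docks on the receptors, at 0.54 and GRB2 at 0.28. All 12 receptor brakes were tested, with a median of -0.21, 6 on each side of 0 and none past 1, where 26.7% of tested genes lay. With library totals 4 brakes were above 0 and 8 below it. LRIG1 at 0.64, LRIG3 at 0.62 and LRIG2 at 0.48, membrane proteins of 1 family, were highest. RNF41, a ubiquitin ligase for ERBB3, at -0.98, PTPRJ, a receptor phosphatase, at -0.80 and CBL, the ubiquitin ligase of EGFR, at -0.80 were lowest.

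The 13 genes of the RAS-ERK core had a median of 0.14, and 12 of them were above 0 with TMM factors but 5 with library totals, where the median was -0.13. HRAS was highest at 0.93. KSR1, a scaffold of the cascade, was lowest at -1.15, and MAP2K2 and RASA1 followed at 0.01 and 0.04, or -0.27 and -0.23 with library totals. Transcripts known to follow ERK activity went both ways. Of 10 such genes 9 were tested, with a median of -0.35, 4 above 0 and 5 below it, and 2 past 1 in each direction. Past 1 were thus 44.4% of the 9, against 26.7% of all tested genes, and with library totals 3 were above 0 and 6 below it. PHLDA1 went from 5788 to 1616 counts (-1.63), DUSP4, a phosphatase of ERK, from 2582 to 943 (-1.24), and ETV5 from 808 to 374 (-0.90). ETV4, a transcription factor of the same family as ETV5, went from 2709 to 6228 counts (1.41), DUSP6, also an ERK phosphatase, from 441 to 853 (1.16) and CCND1, cyclin D1, from 3035 to 4155 (0.66). The pairs DUSP4 and DUSP6, and ETV5 and ETV4, therefore lay on opposite sides of 0.

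**Figure D4:**
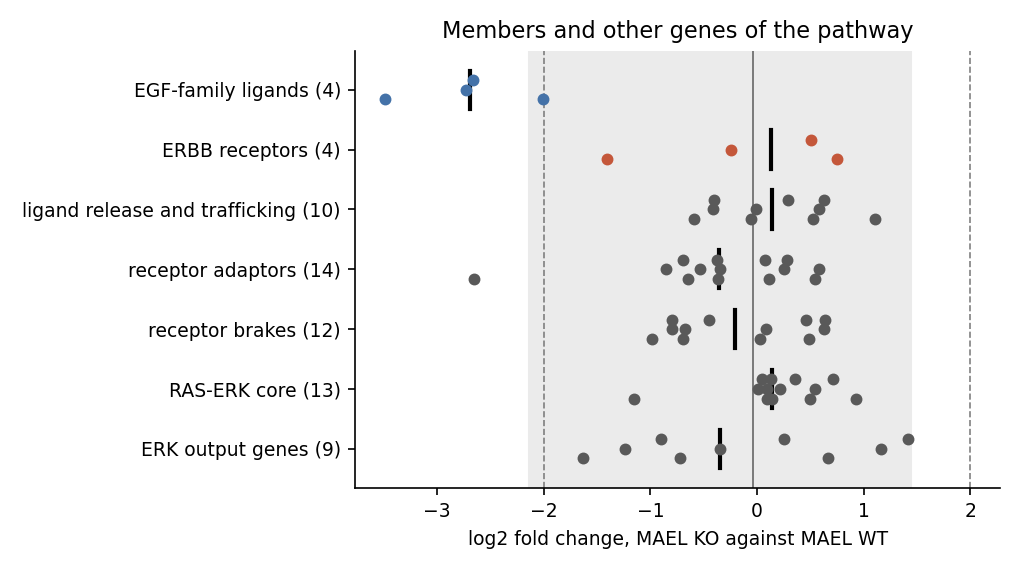
Log2 fold changes of the tested genes by role, a point per gene, with the number tested in brackets, a black bar at the median, a gray band for the 5th to 95th percentile of all tested genes and dashed lines at -2 and 2. All 4 tested ligands lie at or left of -2, and of the other genes shown SHC4 alone does.

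AREG, EREG and BTC belong to a ligand cluster on chromosome 4, with EPGN. The gaps between the genes were 49.8 kb from EPGN to EREG, 56.4 kb from EREG to AREG and 289.7 kb from AREG to BTC, with 0 protein-coding genes in each. Of 41 genes starting within 1 Mb of the AREG start, 14 were tested, and their median log2 fold change of -0.77 includes the 3 ligands themselves, which were chosen with their values known. The other 11 genes had a median of -0.30, a count made after seeing the data. Of these 11, CXCL8 and PARM1 were past -2 (18.2%, against 5.64% of all tested genes) and none was past 2 (2.16% of all). PARM1, a mucin-like membrane protein gene, starts 488 kb from AREG and went from 2943 to 349 counts, and its log2 fold change was -2.86 (95% limits -3.03 and -2.71). CXCL8, which encodes IL-8, starts on the other side, at -704.6 kb, and went from 5434 to 1039 counts, and its log2 fold change was -2.18 (95% limits -2.27 and -2.08). Between CXCL8 and EREG lie genes on both sides of 0, named here after their values were seen. PF4 was at -1.10 with 41 and 16 counts, CXCL1 at 0.87 with 447 and 708 counts, CXCL5 at 0.27 (-0.0048 with library totals) and MTHFD2L, the coding neighbour before EPGN, at 0.39. The stretch as a whole did not share a direction. In a 2 Mb window 29 genes were tested, with a median of -0.25, and the 26 that are not ligands of the family had a median of 0.01. Of those 26, 2 were past 2 and 2 past -2, or 7.69% each way, against 2.16% and 5.64% of all tested genes.

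**Figure D5:**
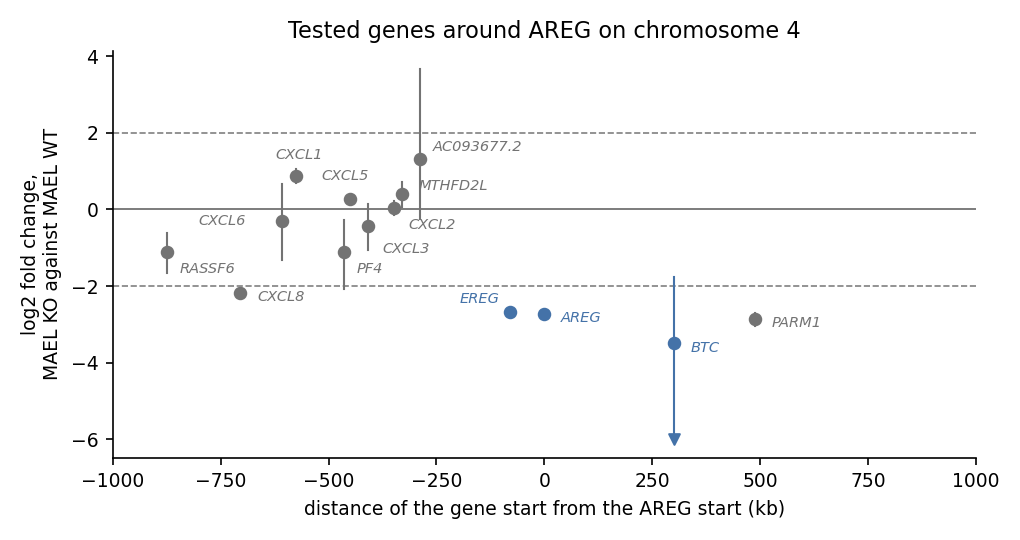
Log2 fold change with its 95% counting interval for each of the 14 tested genes within 1 Mb of AREG, by the distance of the gene start from that of AREG in kb; EGF-family genes are blue and others gray, dashed lines mark -2 and 2, and an arrow marks the interval of BTC. EREG, AREG, BTC and PARM1 lie side by side below -2, and CXCL8 lies below it at the far left.

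Few genes with as many MAEL WT counts as AREG were as much lower. Among 410 other protein-coding genes with a MAEL WT count within a factor of 2 of that of AREG, 5 had a log2 fold change below -2 and 1 was lower than AREG. Of all tested genes 5.64% were below -2, a share that includes genes with far fewer counts. Below -2 were 1008 tested genes, and 283 when at least 100 counts were required. AREG was chosen with its fold change known, as was EREG, which is among the 5, so this is a description. The 3 nearest to AREG in fold change, a likeness over 2 libraries only, were EREG, S100P at -2.49 and CEBPB at -2.23. S100P, a calcium-binding protein gene, went from 14792 to 2268 counts and CEBPB, the gene of the transcription factor C/EBP beta, from 9375 to 1723.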

How the data were processed

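The authors sequenced 1 RNA library of MAEL WT and 1 of MAEL KO PLC8024 cells on a HiSeq machine. The authors deposited read counts per gene, without normalization, and FPKM values, which equal the count over the listed length of the gene and over 1.10 (MAEL WT) or 0.910 (MAEL KO) times the library total. The submitters' processing notes name HISAT2 2.0.5, featureCounts 1.5.0-p3 and hg19, while all 58735 genes carry the GRCh38 coordinates of GENCODE 29.

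TMM factors, 1.10 and 0.909, came from edgeR 4.0.16, and other size factors from DESeq2 1.42.0, in R 4.3.3. Fold changes and intervals were computed in Python 3.11.15 with SciPy 1.17.1, and the steps were tested on simulated counts. With 1 library per condition no test was run. A fold change with both libraries at or under 3 counts was not computed. Intervals of ratios of FPKM sums use the Poisson variance of the counts. The alternatives were DESeq2 size factors, library totals, the FPKM ratio with 0.01 added, added counts of 0.1 and 5, other filters and other lengths.

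The genes and lists were chosen with earlier results of these data known. Named are all members, the other ligands, up to 3 genes at each end of each list, those past 2 near AREG with some named after their values were seen, and the 3 genes most like AREG. Sequences are RefSeq windows. Protein sequences were not analysed here, and some genes within this rule are not reported here.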

Additional observations from a re-analysis of the deposited data

How the results depend on the processing

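No paired analysis was possible because each condition has 1 library, and for the same reason no library could be left out. Every tested member kept its direction under all 5 settings of scaling and added count. None of the settings could readily have done otherwise, as even library totals shifted the median of all tested genes by -0.27 only. The interval of ERBB4 includes no change with TMM factors but not with library totals, and with so few counts its direction stays unknown. With library totals the values moved beyond the counting interval to -3.00 for AREG, -2.94 for EREG, 0.476 for EGFR, -0.526 for ERBB2, 0.228 for ERBB3 and -0.518 for ERRFI1. The median of the RAS-ERK core moved to -0.133, outside its interval of 0.04 to 0.54. Intervals of medians come from the spread of values over the genes of a list. They hold neither counting error nor replicate error. The medians of the other lists stayed within their intervals.

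Counts of genes past 2 were 387 higher and 1008 lower, and 250 and 513 with 5 added to the counts, 1029 and 1773 without a filter and 185 and 283 for genes with at least 100 counts. Past 1 they were 1827 and 2951, and 5304 and 5745 without a filter and 1110 and 1101 at 100 counts, with 1174 higher for library totals and 1853 lower for protein-coding genes alone.

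Without division by length AREG took 51.9% of the ligand counts in MAEL WT and 50.6% in MAEL KO, and EGFR 43.6% and 52.4% of the receptor counts. With the longest coding transcript, chosen after seeing the data, AREG took 79.7% in MAEL WT, and EGFR 29.9% and 38.3%, and the change in the ratio of ligands to receptors was -3.10, as it was without AREG. TGFA, BTC and ERBB4 are limited by their low counts. The median of the genes near AREG stayed within its interval in windows of 500 kb and 2 Mb, with library totals and without the ligands. That interval, again over genes, is wide, at -2.73 to 0.39, and includes the chosen ligands.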
